A study of Mus musculus with 6 samples.

Results

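The genes described here encode the Ube2 ubiquitin-conjugating enzymes and the Usp deubiquitinases. They were chosen by name alone: every non-control probe whose gene name in the scanner files begins with Ube2 or Usp, followed by the letter or number of a family member. Of 27961 gene names on the array, 80 met this rule, 31 of them Ube2 and 49 Usp, read by 187 of 41174 probes. Where several probes read a gene, the brightest on average was taken. A gene was tested if both arrays of 1 or more groups read that probe well above background. This held for 30 Ube2 and 44 Usp genes, among 14957 genes tested in all. Ube2u, Usp18, Usp26, Usp27x, Usp44 and Usp9y were not tested, because the chosen probe was well above background on at most 1 array.

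The study profiled RNA bound to DAZL in mouse germ cells made in culture. Embryonic stem cells of the V6.5 line, of mixed C57BL/6 and 129SV strain, carried Dazl-GFP-V5, a fusion of DAZL, a germ-line RNA-binding protein, with a fluorescent protein and an epitope tag. Feeder cells were removed and the cells were kept for 12 days in differentiation medium; the primordial germ cells (PGCs) obtained were crosslinked with ultraviolet light before lysis, and RNA was taken for 3 groups of 2 arrays. The groups were total RNA with no antibody (input), RNA recovered by immunoprecipitation (IP) with an antibody to the poly(A)-binding protein PABP1 (PABP1 IP, a control in the study), and RNA pulled down by an anti-GFP antibody (GFP IP). All 3 groups share the tagged line and the culture, so no group lacks Dazl-GFP-V5. The promoter that drives the fusion and the number of clones are not given in the sources used here, and an IP with an unrelated antibody was not analysed here. Nothing in the labels says that replicates came from separate cultures, so p-values measure the spread between these samples, which may be technical.

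Ubiquitin is attached to proteins in a relay: an E1 enzyme activates it, an E2 enzyme of the Ube2 family carries it, and an E3 ligase directs it to the target, while Usp enzymes, a large family of cysteine proteases, cut it off again. A few Ube2 proteins carry the related modifiers NEDD8 or ISG15 instead of ubiquitin. Most E2 proteins are little more than a catalytic core and have short mRNAs, whereas most Usp proteins have extra domains and long mRNAs. Lengths were not measured here, and their part in the results was not tested. PABP1 coats the poly(A) tail of mRNAs in the cytoplasm, and DAZL binds U-rich motifs, mostly in untranslated regions.

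Between 41.5% and 52.6% of the 43379 spots of an array were well above background and 0 were saturated. Dazl mRNA itself was higher in GFP IP than in input by 3.80 ± 0.26 on the log2 scale and lower in PABP1 IP, at -1.82 ± 0.26 (limma adjusted p = 0.00143 and 0.00364; SE, n = 2 arrays a group, as for all values after ± below). Pabpc1, which encodes PABP1, gave -0.85 ± 0.69 and -0.14 ± 0.69 and did not pass the test. Of 15 PGC markers 14 were tested, all 14 well above background on both input arrays; Ddx4 was not tested. Cardiac and smooth muscle markers were detected too, 8 of 10 on both input arrays; Myh6 was not tested. Of the 9 tested, 8 were lower in GFP IP than in input (36.6% of all genes). In PABP1 IP 1 was higher and 2 lower (30.1% and 23.8% of all genes). Of 6 tested fibroblast markers 3 were lower in GFP IP (36.6% of all genes). Other lists gave few calls in GFP IP: of 4 tested neural markers 2 were higher and 1 lower. Of 5 visceral endoderm markers 1 was higher, and of 2 blood and endothelial markers 1 was higher, with 0 lower in both lists (18.5% of all genes higher). Among these higher markers, Dcx (neural) and Foxa2 (visceral endoderm) were tested only through GFP IP. Their higher values there are therefore no independent evidence. The summed level of the muscle list ranged from 6.34 to 6.61 in input, 7.45 to 7.57 in PABP1 IP and 4.92 to 5.33 in GFP IP, in log2 units relative to the 75th percentile of the array. Of the 14 germ cell markers 8 were higher and 4 lower in GFP IP than in input (18.5% and 36.6% of all genes), with a median difference of 1.25. In PABP1 IP 5 were higher and 4 lower, near the 30.1% and 23.8% among all genes. The summed level of this list, which its brightest genes set, ranged from 11.9 to 12.0, 10.9 to 11.9 and 10.5 to 10.7 in the same order, and the fibroblast list from 6.54 to 6.99, 6.69 to 6.93 and 4.99 to 5.81. The part of this cell mixture in the results was not tested. The groups share the culture, and the IP arrays read recovered RNA alone. In bulk samples recovery from fewer cells of a type and less recovery per cell cannot be told apart.

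Ube2 and Usp mRNAs moved apart in the IPs. In PABP1 IP 21 of 30 Ube2 genes were higher than in input, 2 were lower and 7 did not pass the test (adjusted p under 0.05, Benjamini-Hochberg over all genes, limma), against 30.1% of all genes higher and 54% past the test in either direction. In the same comparison 27 of 44 Usp genes were lower, 6 higher and 11 not past the test, against 23.8% of all genes lower. In GFP IP 15 of 30 Ube2 genes were higher than in input, 2 lower and 13 not past the test, against 18.5% higher and 55.1% in either direction among all genes. Of the Usp genes 15 of 44 were lower and 11 higher there, near the 36.6% lower and 18.5% higher among all genes. Directly compared with PABP1 IP, GFP IP held 16 of 44 Usp mRNAs at a higher level and 6 at a lower one, where 22.3% of all genes were higher and 41.3% lower, 63.6% in all. Of the Ube2 mRNAs 6 were higher and 12 lower in that comparison, the latter near the share among all genes. The 3 comparisons share arrays and are not independent. Some higher calls are no independent evidence, as those genes were tested only through the IPs where they are high. These include Ube2d1 and Ube2w in both IPs, Ube2l6, Usp49 and Usp50 in PABP1 IP, and Usp22, Usp31 and Usp32 in GFP IP. With only genes well above background on all 6 arrays, PABP1 IP had 20 of 27 Ube2 higher and 2 lower. It had 27 of 36 Usp lower and 4 higher. In GFP IP 14 Ube2 were then higher than in input and 2 lower, and 16 Usp higher than in PABP1 IP and 4 lower. Leaving out any single array kept 18 of the 21 higher Ube2 calls and 14 of the 27 lower Usp calls in PABP1 IP, and 10 of the 15 higher Ube2 calls in GFP IP. Without input array 1 or 2 alone, 16 and 15 Usp genes were lower in PABP1 IP, and 8 and 7 in GFP IP.

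The family medians show the same pattern. The Ube2 median log2 difference was 1.54 in PABP1 IP and 0.67 in GFP IP against input, where the median over all genes was 0.12 and -0.50; both Ube2 medians stayed above 0 under every other scaling tried. The Usp median was -0.91 in PABP1 IP (1.18 when scaled to spike-in RNAs) and -0.51 in GFP IP (0.06 when scaled to the array median and 0.47 when scaled to spike-in RNAs), the latter 0.01 below the median of all genes. For GFP IP against PABP1 IP the Usp median was 0.45 (-0.66 when scaled to spike-in RNAs) and the Ube2 median -0.43 (0.06 after quantile normalization and 0.26 after cyclic loess), beside -0.58 over all genes. Scaling to spike-in RNAs moved every gene by the same amount, 0.98 in GFP IP against input, 2.09 in PABP1 IP against input and -1.11 in GFP IP against PABP1 IP. Under it 24 of 44 Usp genes were higher and 2 lower in PABP1 IP than in input, the latter being Usp42 and Usp36. Of all 14957 genes 12117 were higher and 260 lower there, a larger share higher than among the Usp genes. In GFP IP 11 Usp genes were higher and the rest did not pass the test. That is near the share among all genes, of which 3748 were higher and 302 lower. In GFP IP against PABP1 IP it left 856 of all genes higher and 9512 lower. Among the Usp genes it left 4 higher (Usp37, Usp32, Usp31 and Usp42) and 14 lower. Of these, Usp32 and Usp31 were tested only through GFP IP. Spike-in scaling also left 19 of 30 Ube2 genes lower, near the share among all genes, with the rest not past the test. Directions below are relative to the 75th percentile of each array. The lower calls of Ube2 and Usp genes against input, other than Usp42 and Usp36 in PABP1 IP, and the higher calls between the IPs, other than those 4, did not hold under spike-in scaling.

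**Figure D1:**
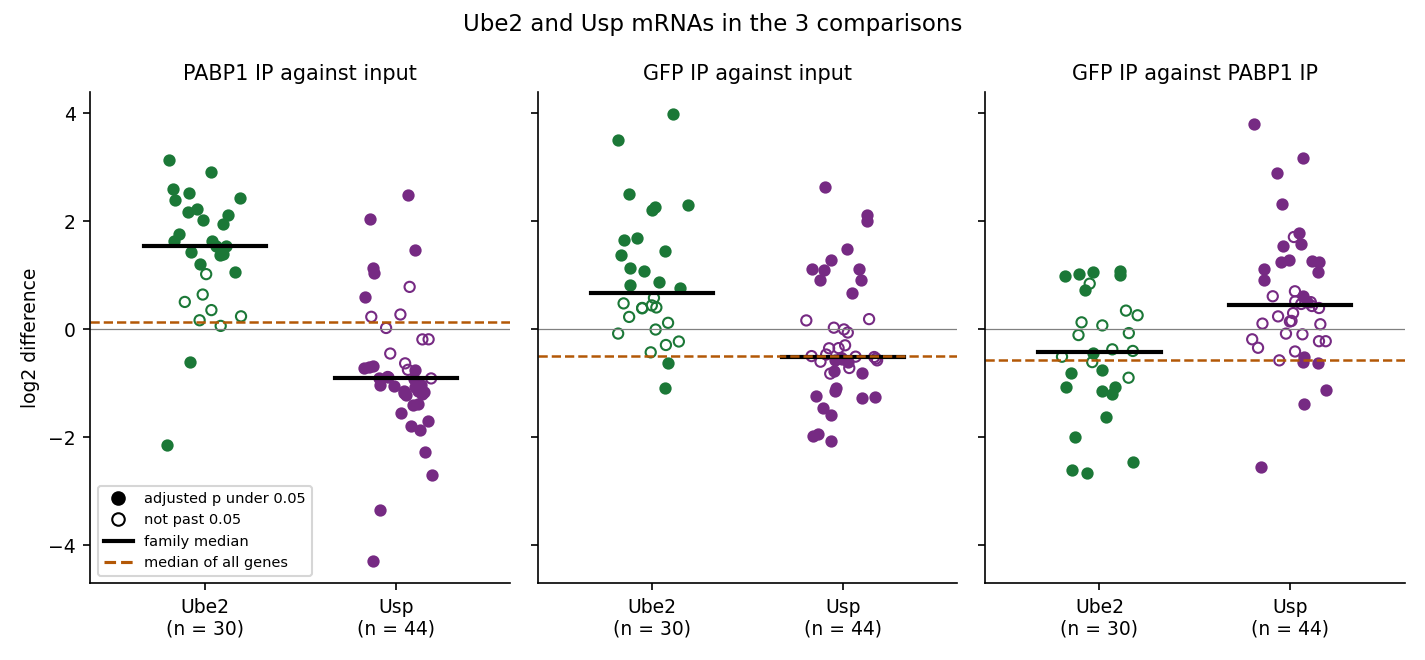
Log2 difference of each tested gene (points), by comparison in 3 panels, for 30 Ube2 and 44 Usp genes, read by 1 probe each. Filled points passed an adjusted p of 0.05 in limma, black bars are family medians and the dashed line is the median of all 14957 genes; the Ube2 median lies at 1.54, 0.67 and -0.43 (0.26 after cyclic loess) and the Usp median at -0.91, -0.51 and 0.45 (1.18, 0.47 and -0.66 when scaled to spike-in RNAs).

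The distance between the family medians within an array does not depend on a constant scaling. Relative to the mean of the input arrays, the Ube2 median was 1.55 and 1.52 on PABP1 IP arrays 1 and 2, and the Usp median was -1.01 and -0.75, so that they lay 2.56 and 2.27 apart. On GFP IP arrays 1 and 2 the Ube2 median was 0.83 and 0.64 and the Usp median -0.53 and -0.35, or 1.36 and 0.99 apart. As their mean is the reference, the input arrays were mirror images by construction and lay 0.05 to either side of 0. That all 4 IP arrays had a wider gap than the input arrays rests in part on this reference. The PABP1 IP arrays had a wider gap than the GFP IP arrays. Taken gene by gene as GFP IP against PABP1 IP, the Ube2 median lay below the Usp median, a gap of -0.87. GFP IP array 1 and PABP1 IP array 2 were on 1 slide and the other 4 arrays on another; within these slides that gap was -0.62 and -0.79. With 2 arrays against 2 no permutation test of these medians can pass 0.05, so they are given as a description. In the authors' deposited table, where 9 Ube2 and 23 Usp genes were matched, the gap was 2.28 in PABP1 IP and 2.45 in GFP IP against input, and 0.25 between the IPs, where the fit gave -0.52 over the same genes; the scale of that table was not fully established.

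**Figure D2:**
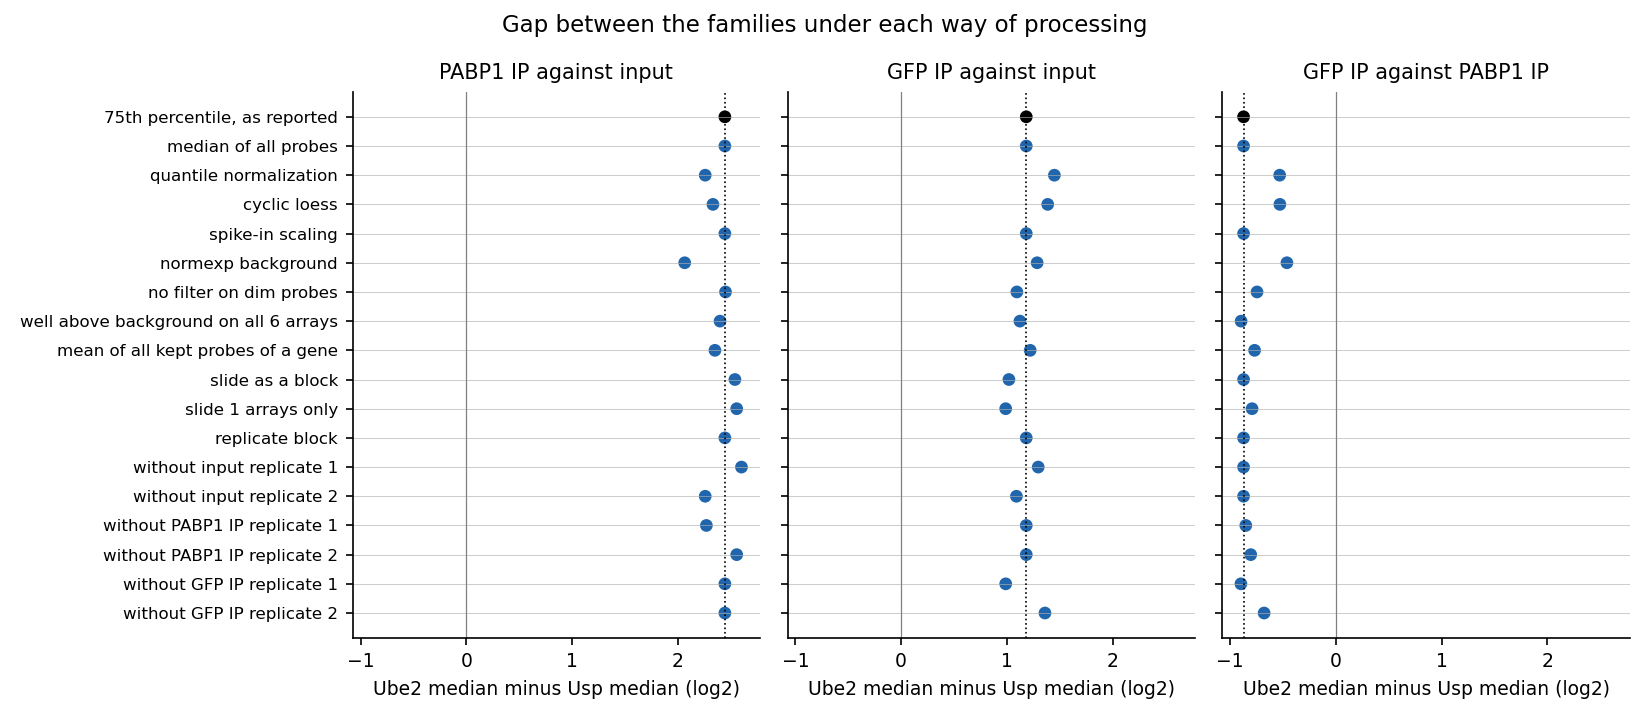
Ube2 median minus Usp median (log2) in each comparison, under the reported processing and the alternatives that start from the scanner files. The gap was above 0 in both comparisons with input under every setting drawn, and below 0 for GFP IP against PABP1 IP, where it ran from -0.90 to -0.46.

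Among the Ube2 genes, Ube2a had the largest difference between the IPs. Ube2a is 1 of the Rad6 homologues, which act in DNA damage tolerance and histone ubiquitination. Its log2 signal relative to the 75th percentile was 2.74 and 2.62 in input, 5.41 and 5.13 in PABP1 IP and 2.62 and 2.57 in GFP IP. Only the PABP1 IP arrays stood apart: the mRNA rose by 2.59 ± 0.17 over input (6.01-fold, adjusted p = 0.000889) and was lower in GFP IP than in PABP1 IP by a difference of -2.67 ± 0.17 (adjusted p = 0.000461), while GFP IP against input gave -0.08 ± 0.17. A second probe of Ube2a gave 1.52 for PABP1 IP against input, 0.92 for GFP IP against input and -0.60 between the IPs.

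Ube2l3, a partner of HECT and RBR ligases, had 1.42 and 1.13 in input, 3.39 and 3.48 in PABP1 IP and 1.02 and 0.93 in GFP IP. It rose by 2.16 ± 0.17 in PABP1 IP (adjusted p = 0.000989) and was lower by a difference of -2.45 ± 0.17 in GFP IP than in PABP1 IP (adjusted p = 0.000471); its other kept probe gave 0.62 and 0.41. Ube2j1, an E2 anchored in the membrane of the endoplasmic reticulum, rose by 1.38 ± 0.16 in PABP1 IP and was lower by a difference of -2.01 ± 0.16 in GFP IP than in PABP1 IP (adjusted p = 0.00194 and 0.000529). Its values were 2.26 and 2.32 in input, 3.70 and 3.64 in PABP1 IP and 1.77 and 1.56 in GFP IP, with no overlap between any 2 groups. The lower value of Ube2j1 in GFP IP than in input, -0.62 ± 0.16 (adjusted p = 0.0231), did not pass the test without input array 1, input array 2 or GFP IP array 2 (adjusted p = 0.111, 0.124 and 0.088).

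Ube2j2, the other E2 of this membrane-anchored pair, behaved differently. It had 1.57 and 1.53 in input, 4.13 and 3.83 in PABP1 IP and 5.03 and 5.08 in GFP IP, so the 3 groups did not overlap and GFP IP was highest. The mRNA rose by 3.51 ± 0.17 in GFP IP (11.4-fold, adjusted p = 0.00143) and by 2.43 ± 0.17 in PABP1 IP (5.40-fold, adjusted p = 0.000901). It was higher in GFP IP than in PABP1 IP by 1.07 ± 0.17 (adjusted p = 0.00378), a difference that became -0.04 when scaled to spike-in RNAs. Of its 2 other kept probes, 1 gave 4.14 and 3.19 against input and the other -0.09 and -0.20, for GFP IP and PABP1 IP in turn.

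Ube2w, which attaches ubiquitin to the amino terminus of its targets, had the largest Ube2 rise in both IPs. Its values were -3.41 and -2.67 in input, where 1 of 2 arrays was well above background, -0.21 and 0.40 in PABP1 IP, and 1.28 and 0.60 in GFP IP. All 4 IP arrays lay above both input arrays: the mRNA rose by 3.98 ± 0.39 in GFP IP (15.7-fold, adjusted p = 0.00208) and by 3.14 ± 0.39 in PABP1 IP (8.79-fold, adjusted p = 0.00234). The 2 IPs differed by 0.84 ± 0.39, which did not pass the test, and a second kept probe gave 4.28 and 2.18 against input. With normexp background correction the rises were 1.44 and 0.76, so neither the size nor the rank held under it. Ube2w was tested only through the IPs, so its higher values there are no independent evidence.

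The Ube2e enzymes moved as a trio of close paralogues. In PABP1 IP Ube2e1, Ube2e2 and Ube2e3 rose by 2.02 ± 0.27, 1.77 ± 0.15 and 1.95 ± 0.24 (adjusted p = 0.00295, 0.00111 and 0.00216). In GFP IP they rose by 1.64 ± 0.27, 1.69 ± 0.15 and 2.21 ± 0.24 (adjusted p = 0.00617, 0.00185 and 0.00233). Between the IPs none of the 3 passed the test in limma, with -0.38, -0.08 and 0.25. Ube2g1, from 0.59 and 0.36 in input to 2.68 and 2.73 in PABP1 IP and 2.83 and 2.71 in GFP IP, was likewise higher by near-equal amounts, 2.23 ± 0.17 and 2.29 ± 0.17 (adjusted p = 0.000937 and 0.00147).

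The Ube2d enzymes, promiscuous E2s that work with many ligases, were higher in both IPs by their chosen probes. Kept probes of Ube2d3 had mixed signs for PABP1 IP against input. In PABP1 IP Ube2d2 and Ube2d3 rose by 1.62 ± 0.16 and 1.21 ± 0.15 (adjusted p = 0.00136 and 0.00248). In GFP IP they rose by 0.81 ± 0.16 and 0.76 ± 0.15 (adjusted p = 0.0105 and 0.0112), but without input array 1 the adjusted p was 0.0625 and 0.057, without input array 2 it was 0.0745 and 0.084, and without GFP IP array 1 it was 0.0507 for Ube2d2. Ube2d1 was not well above background on either input array and was tested only through the IPs, so its higher values there are no independent evidence. Its level was at least 1.60-fold higher in PABP1 IP and at least 1.21-fold higher in GFP IP, as measured against the lowest signal well above background on each array (adjusted p = 0.00144 and 0.0027), and the differences were -0.06 and -0.35, not past the test, with the normexp background correction.

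Ube2n and the Ube2v proteins form dimers that build ubiquitin chains for DNA repair and inflammatory signalling, the Ube2v partner lacking a catalytic cysteine. Ube2n had -0.06 and 0.01 in input, 2.57 and 2.42 in PABP1 IP and 1.35 and 1.48 in GFP IP. The groups were fully separate, with rises of 2.52 ± 0.16 and 1.44 ± 0.16 (adjusted p = 0.000846 and 0.00238) and a lower level in GFP IP than in PABP1 IP, -1.08 ± 0.16 (adjusted p = 0.00274); a second probe gave 0.62 for the last difference. Ube2v2 had -0.30 and -0.67 in input, 1.03 and 1.07 in PABP1 IP and 1.61 and 1.95 in GFP IP, rising by 1.54 ± 0.21 and 2.27 ± 0.21 (adjusted p = 0.00306 and 0.0019). Its higher level in GFP IP than in PABP1 IP, 0.73 ± 0.21 (adjusted p = 0.0286), was not past the test without PABP1 IP array 1, PABP1 IP array 2 or GFP IP array 2 (adjusted p = 0.0945, 0.0758 and 0.113). Ube2v1 gave 0.64 ± 0.21 and -0.43 ± 0.21 against input, neither past the test, and -1.07 ± 0.21 between the IPs (adjusted p = 0.00777).

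Ube2c and Ube2s supply ubiquitin to the anaphase-promoting complex, which drives exit from mitosis. Ube2c had 3.73 and 3.61 in input, 5.93 and 5.63 in PABP1 IP and 4.99 and 5.07 in GFP IP, rising by 2.11 ± 0.17 and 1.36 ± 0.17 (adjusted p = 0.00104 and 0.00318). Ube2s, at 8.88 and 8.54 in input, rose by 1.05 ± 0.27 in PABP1 IP (adjusted p = 0.0228), a call that was lost without any 1 of the input or PABP1 IP arrays (adjusted p from 0.059 to 0.122), and gave 0.44 ± 0.27 in GFP IP. Ube2t, the E2 of the Fanconi anaemia pathway, and Ube2b, the other Rad6 homologue, did not pass the test in any comparison, with differences from -0.11 to 0.50.

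Ube2o was the exception among the E2 enzymes. It encodes an unusually large protein that combines E2 and E3 activity. Its values were 6.05 and 6.00 in input, 3.93 and 3.82 in PABP1 IP and 4.89 and 4.97 in GFP IP, with both IPs below input and GFP IP between the other groups. The mRNA was lower than in input by a difference of -2.15 ± 0.15 in PABP1 IP (adjusted p = 0.000901) and -1.10 ± 0.15 in GFP IP (adjusted p = 0.00365; 0.127 when scaled to the array median), and higher in GFP IP than in PABP1 IP by 1.06 ± 0.15 (adjusted p = 0.00244). Its second kept probe gave -4.06, -2.08 and 1.98. Ube2q2 was the other Ube2 gene lower in PABP1 IP, -0.62 ± 0.18 (adjusted p = 0.0336), but the call was lost without input array 1, input array 2, PABP1 IP array 2 or either GFP IP array (adjusted p from 0.0518 to 0.162), and the mean of its probes gave 0.18. Ube2z, which receives ubiquitin from the E1 enzyme Uba6, did not differ past the test between PABP1 IP and input (0.06 ± 0.18) and was higher in GFP IP by 1.07 ± 0.18 (adjusted p = 0.00695; 0.0532 without input array 2).

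Among the remaining E2 genes, 2 calls did not hold in every fit that left out an array. Ube2r2, a relative of Cdc34 that serves SCF ligases, gave 1.43 ± 0.33 in PABP1 IP (adjusted p = 0.016), lost without input array 1, input array 2 or PABP1 IP array 2 (0.0651, 0.0794 and 0.0576), where the difference was 1.48, 1.37 and 1.07. Ube2h gave 1.14 ± 0.33 in GFP IP (adjusted p = 0.0353), lost without either input array or GFP IP array 1 (0.114 to 0.133), where the difference was 1.12, 1.16 and 0.77. Ube2g2, of protein degradation at the endoplasmic reticulum, and Ube2q, now Ube2q1, did not pass the test, with 1.02 ± 0.41 and 0.24 ± 0.36 in PABP1 IP.

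Both E2 enzymes for NEDD8 were higher in PABP1 IP than in input by their chosen probes. The kept probes of Ube2f had mixed signs in all 3 comparisons, and between the IPs they spanned 4.25. Ube2f, an E2 for NEDD8, had 1.47 and 1.26 in input, 3.67 and 3.82 in PABP1 IP and 1.33 and 0.94 in GFP IP. It rose by 2.38 ± 0.20 in PABP1 IP (adjusted p = 0.00108) and was lower by a difference of -2.61 ± 0.20 in GFP IP than in PABP1 IP (adjusted p = 0.000523). Ube2m, the other NEDD8 enzyme, rose by 1.38 ± 0.19 in PABP1 IP (adjusted p = 0.00338) and by 0.87 ± 0.19 in GFP IP (adjusted p = 0.0157), the latter lost without input array 1, input array 2 or GFP IP array 1 (adjusted p = 0.0659, 0.0934 and 0.0706). Ube2l6, the E2 for ISG15, was above background in PABP1 IP alone and was tested only through that group, so its higher value there is no independent evidence. Its values were -4.37 and -5.04 in input, -2.93 and -3.41 in PABP1 IP and -4.08 and -4.57 in GFP IP, and calls in both comparisons with PABP1 IP were lost without PABP1 IP array 1 (adjusted p = 0.0562 against input and 0.117 between the IPs).

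**Figure D3:**
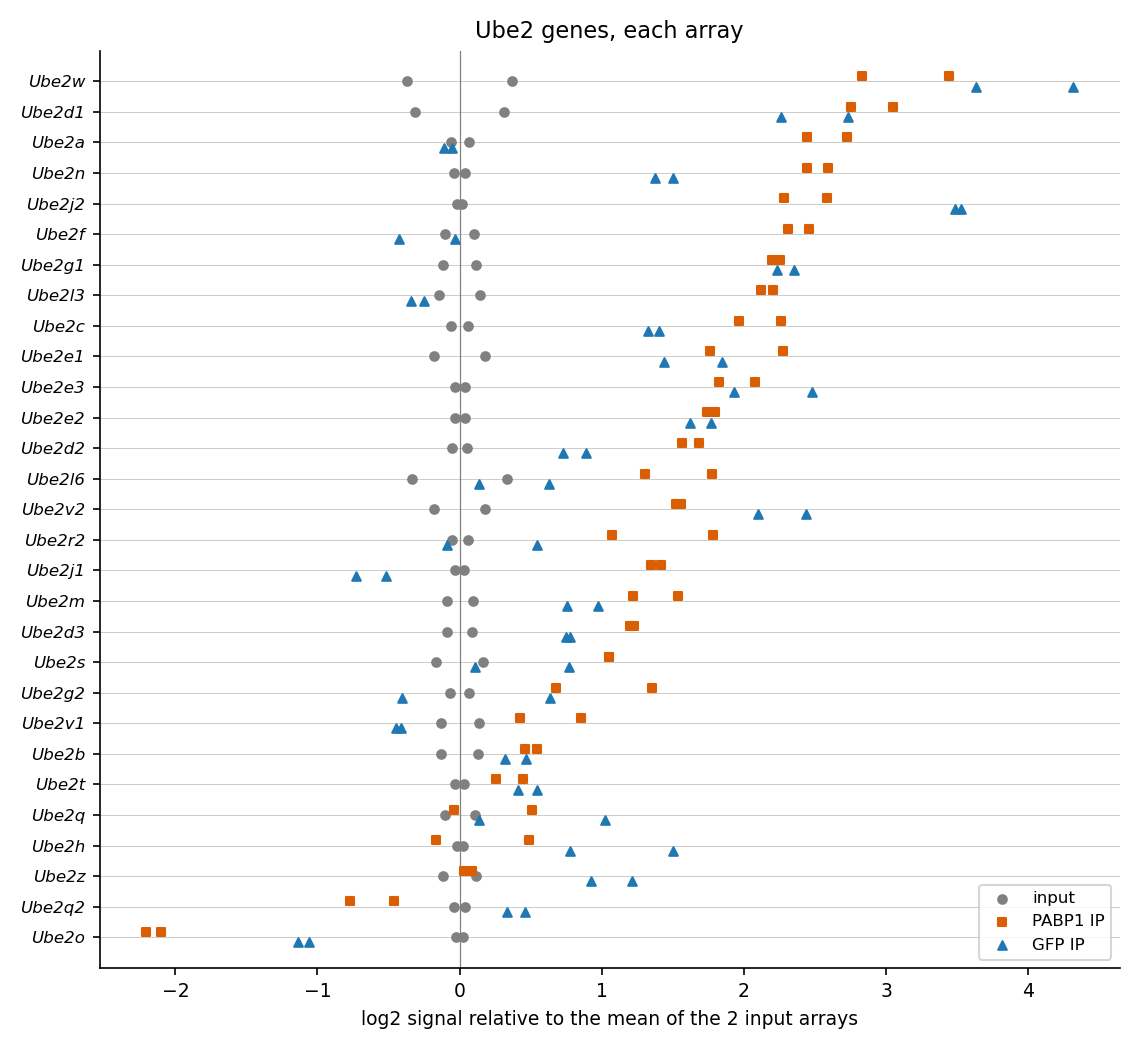
Log2 signal of 29 tested Ube2 genes on each array, relative to the mean of the 2 input arrays of that gene, ordered by PABP1 IP against input. Squares are the 2 PABP1 IP arrays, triangles the 2 GFP IP arrays and grey circles the input arrays; PABP1 IP lies to the right of input for most genes and Ube2o lies to the left by a difference of -2.15.

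Usp42, Usp36 and Usp7 lay at the opposite end, and had the most negative differences between PABP1 IP and input of all tested Ube2 and Usp genes. Usp42 had 3.04 and 3.33 in input, -0.73 and -1.49 in PABP1 IP and 0.78 and 1.65 in GFP IP. It was lower than in input by a difference of -4.29 ± 0.39 in PABP1 IP (19.6-fold, adjusted p = 0.00122) and by a difference of -1.97 ± 0.39 in GFP IP (adjusted p = 0.0109; 0.0594 without input array 2). Usp36, a nucleolar deubiquitinase, had 3.02 and 3.18, then -0.14 and -0.37, then 0.86 and 1.18 in the same order of groups. It was lower by a difference of -3.35 ± 0.19 in PABP1 IP (10.2-fold, adjusted p = 0.000846) and by a difference of -2.07 ± 0.19 in GFP IP (4.21-fold, adjusted p = 0.00192), and its second probe gave -3.85 and -2.53.

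Usp7 stabilises both p53 and its ligase Mdm2. Its signal was 7.84 and 7.73 in input, 5.19 and 4.98 in PABP1 IP and 6.29 and 6.36 in GFP IP. The 3 groups did not overlap for Usp42, Usp36 or Usp7, and in each GFP IP lay between input and PABP1 IP. Usp7 was lower than in input by a difference of -2.70 ± 0.16 and -1.46 ± 0.16 (adjusted p = 0.000846 and 0.00247), and GFP IP exceeded PABP1 IP by 1.24 ± 0.16 (adjusted p = 0.00191), beside 1.28 ± 0.19 for Usp36 and 2.32 ± 0.39 for Usp42 (adjusted p = 0.00314 and 0.00465).

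Usp24 and Usp34 encode very large proteins. Usp24 was lower than in input by a difference of -1.86 ± 0.17 in PABP1 IP and -1.25 ± 0.17 in GFP IP (adjusted p = 0.00118 and 0.00345). Usp34, which acts on axin in Wnt signalling, had 3.18 and 3.20 in input, 1.22 and 1.57 in PABP1 IP and 2.60 and 2.71 in GFP IP. It was lower by a difference of -1.80 ± 0.18 in PABP1 IP (adjusted p = 0.00144), GFP IP gave -0.54 ± 0.18 (adjusted p = 0.0534), and GFP IP exceeded PABP1 IP by 1.26 ± 0.18 (adjusted p = 0.00263). Usp9x, the X-linked relative, was lower by a difference of -1.39 ± 0.26 in PABP1 IP (adjusted p = 0.00816; 0.0514 without input array 1).

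Some Usp mRNAs were lower in both IPs by similar amounts. Usp48 had 2.98 and 2.86 in input, 1.15 and 1.26 in PABP1 IP and 1.00 and 0.96 in GFP IP. It was lower than in input by a difference of -1.71 ± 0.15 and -1.94 ± 0.15 (adjusted p = 0.00116 and 0.00157), with -0.23 ± 0.15 between the IPs. Usp19, which has a form anchored in the endoplasmic reticulum, was lower by a difference of -1.40 ± 0.17 in PABP1 IP and -1.59 ± 0.17 in GFP IP (adjusted p = 0.00205 and 0.00223), though its second probe gave -0.25 and 0.13. Usp5, which takes apart free ubiquitin chains, was lower by a difference of -1.20 ± 0.20 and -1.10 ± 0.20 (adjusted p = 0.00605 and 0.00874), the latter not past the test without input array 1 (0.0647).

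Other Usp mRNAs were lower in PABP1 IP and did not pass the test in GFP IP. Usp14, a deubiquitinase of the proteasome, had 0.75 and 1.06 in input, -0.24 and -0.38 in PABP1 IP and 0.78 and 1.08 in GFP IP. It was lower by a difference of -1.21 ± 0.20 in PABP1 IP (adjusted p = 0.00542), gave 0.03 ± 0.20 in GFP IP, and was higher in GFP IP than in PABP1 IP by 1.24 ± 0.20 (adjusted p = 0.00387). Its 2 other probes differed from it, with 0.37 and 1.58 in PABP1 IP. Usp47, with a role in base excision repair, was lower by a difference of -1.56 ± 0.21 in PABP1 IP (adjusted p = 0.00318), gave -0.50 ± 0.21 in GFP IP, and was higher in GFP IP than in PABP1 IP by 1.05 ± 0.21 (adjusted p = 0.00874).

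Usp37 had the largest difference between the IPs of all tested Ube2 and Usp genes. It acts on cyclin A in the cell cycle. Its probe read -0.15 and -0.45 in input, -1.54 and -1.40 in PABP1 IP and 2.27 and 2.39 in GFP IP. GFP IP lay above input and PABP1 IP below it: the differences from input were 2.63 ± 0.18 (6.18-fold higher, adjusted p = 0.00143) and -1.17 ± 0.18 (adjusted p = 0.00429), and the IPs differed by 3.80 ± 0.18 (13.9-fold, adjusted p = 0.000458). The other kept probes of Usp37 gave 0.83 and -1.09 in GFP IP against input, so they did not share a direction, and 3.32 and 0.56 between the IPs.

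Usp32, an endosomal and Golgi deubiquitinase, had a similar profile, but Usp32 and Usp31 were tested only through GFP IP. Their higher values there are therefore no independent evidence. Usp32 read -2.48 and -2.76 in input and -3.73 and -3.63 in PABP1 IP, each with 1 of 2 arrays well above background. In GFP IP it read -0.59 and -0.44. It rose by 2.11 ± 0.18 in GFP IP (adjusted p = 0.00168) and was higher in GFP IP than in PABP1 IP by 3.16 ± 0.18 (adjusted p = 0.000458). With normexp background correction the first difference was 0.32, not past the test, and a second kept probe, matched to another cDNA, gave -1.25 and -1.63. Usp31 gave -3.24 and -2.45, -4.21 and -3.25, then -0.73 and -0.97, and was higher in GFP IP than in PABP1 IP by 2.88 ± 0.41 (adjusted p = 0.00258). Against input it gave 2.0 ± 0.41 (adjusted p = 0.0122), lost without input array 1 or GFP IP array 1 (0.0646 and 0.054), and 0.17 with normexp.

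Usp33, Usp4 and Usp53 also were higher in GFP IP than in PABP1 IP, by 1.79 ± 0.19, 1.57 ± 0.22 and 1.54 ± 0.23 (adjusted p = 0.000946, 0.00227 and 0.00276). Usp33 and its paralogue Usp20 act on receptors and at the centrosome, and Usp4 acts on the spliceosome. Against input GFP IP gave 1.08 ± 0.19 for Usp33 (adjusted p = 0.00683; 0.0551 without input array 1), with 1 further kept probe at 1.45 and another at -1.92; the mean of its probes put the difference between the IPs at 0.63, not past the test. For Usp4 it gave 0.68 ± 0.22 (adjusted p = 0.0457), lost without any 1 of the input and GFP IP arrays (0.0903 to 0.184). Usp53 gave 0.91 ± 0.23 (adjusted p = 0.0213), lost without either input array or GFP IP array 2 (0.0601 to 0.124).

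A few Usp mRNAs were higher in PABP1 IP. Usp21, which removes ubiquitin from histone tails among other targets, had 0.19 and 0.17 in input, 2.76 and 2.57 in PABP1 IP and 1.32 and 1.25 in GFP IP. The 3 groups were separate, with rises of 2.49 ± 0.16 (5.60-fold, adjusted p = 0.000846) and 1.11 ± 0.16 (adjusted p = 0.00405) and a lower level in GFP IP than in PABP1 IP by a difference of -1.38 ± 0.16 (adjusted p = 0.00121). Usp46, which works with the cofactor Wdr48, had -0.83 and -0.73 in input, 0.73 and 0.62 in PABP1 IP and 0.29 and 0.37 in GFP IP, rising by 1.46 ± 0.15 and 1.11 ± 0.15 (adjusted p = 0.00155 and 0.00376). Its paralogue Usp12 gave -0.19 ± 0.18 in PABP1 IP and 0.91 ± 0.18 in GFP IP (adjusted p = 0.0104, and 0.0642 and 0.0664 without input arrays 1 and 2).

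Usp2, a regulator of cyclin D1, rose by 1.04 ± 0.17 in PABP1 IP and 1.27 ± 0.17 in GFP IP (adjusted p = 0.00557 and 0.0036), the first being 0.38 and not past the test with normexp. Usp50 was well above background in PABP1 IP alone and was tested only through that group, so its higher value there is no independent evidence. It was at least 1.42-fold above input and at least 3.41-fold above GFP IP, but gave -0.21 against input with normexp and -0.27 in the authors' deposited table. Usp49, not above background in input, was at least 1.80-fold higher in PABP1 IP (adjusted p = 0.0412). That call was lost without any 1 of the input or PABP1 IP arrays, where the difference ran from 1.08 to 1.17. Usp49 was tested only through the IPs, so its higher values there are no independent evidence. Its kept probes had mixed signs in all 3 comparisons, and their mean gave 0.02 for PABP1 IP against input, not past the test. Usp3 gave 0.60 ± 0.18 in PABP1 IP (adjusted p = 0.0401), lost in the same way, where the difference ran from 0.48 to 0.72.

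Of the other lower Usp mRNAs in PABP1 IP, most did not pass the test in every fit that left out an array. Usp20 and Usp45 were lower there by a difference of -1.04 ± 0.17 and -1.08 ± 0.16 (adjusted p = 0.00558 and 0.00377), and both calls held without any single array. Usp4, Usp10, Usp13, Usp15, Usp16, Usp28, Usp29, Usp33, Usp38 and Usp40 were also lower, at -0.69 to -2.28, but each call was lost without at least 1 array (adjusted p up to 0.233). The differences in those fits kept their direction and ran from -0.50 for Usp13 to -2.38 for Usp29; that of Usp10 stayed between -0.70 and -0.76. Usp11, Usp25 and Usp43 did not pass the test in any comparison, and Usp39, which takes part in splicing, did so between the IPs alone, at -0.63 ± 0.18 (adjusted p = 0.0295), a call lost without any 1 array other than PABP1 IP array 2 (0.0643 to 0.112).

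**Figure D4:**
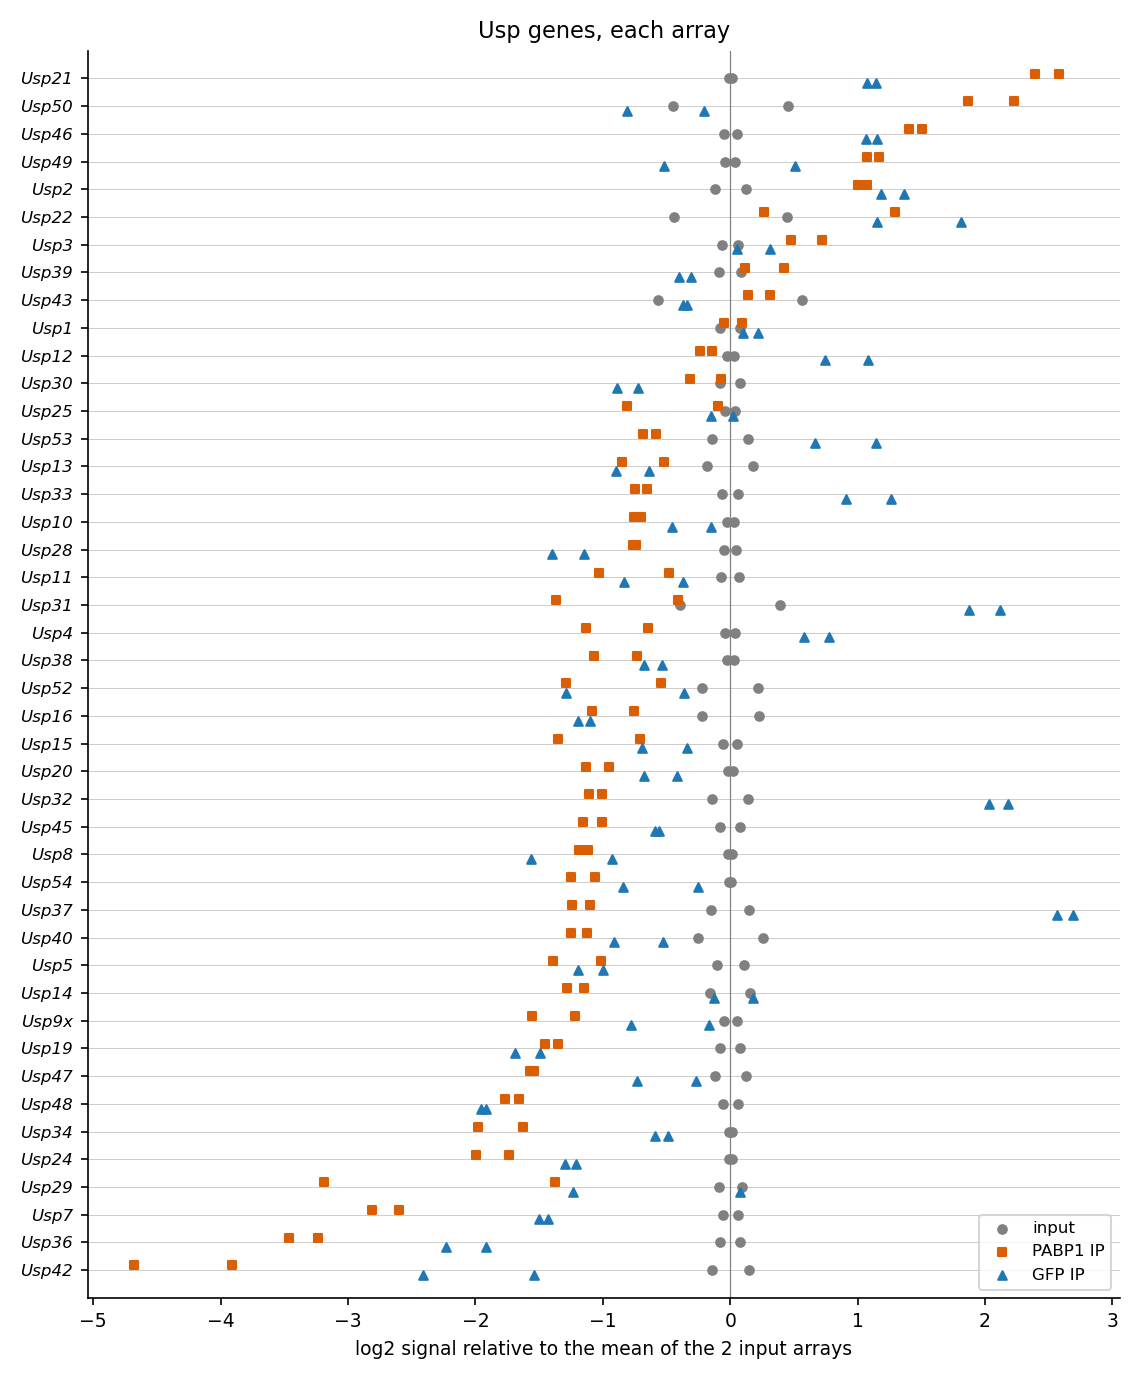
Log2 signal of the 44 tested Usp genes on each array, relative to the mean of the 2 input arrays of that gene, ordered by PABP1 IP against input. Squares are PABP1 IP, triangles GFP IP and grey circles input arrays; most genes lie left of input in PABP1 IP, while Usp37 and Usp32 lie right of it in GFP IP by 2.63 and 2.11.

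Grouped by site of action, the Usp genes were mixed. Of 10 tested Usp genes that act on chromatin or in DNA repair, 3 were higher and 4 lower in PABP1 IP (30.1% and 23.8% of all genes), 2 higher and 3 lower in GFP IP (18.5% and 36.6% of all genes). With so few genes, these counts are not set apart from those shares. Usp28, of the DNA damage response, was lower in GFP IP by a difference of -1.28 ± 0.17 (adjusted p = 0.00327; 0.0614 when scaled to the array median). Usp22, the deubiquitinase of the SAGA complex, gave 1.48 ± 0.48 in GFP IP (adjusted p = 0.0483) and -0.08 with normexp. The call was lost without any 1 of the input or GFP IP arrays, where the difference ran from 1.04 to 1.92. Usp22 was well above background on 1 input array and was tested only through the IPs. Its higher value in GFP IP is therefore no independent evidence. Usp1 did not pass the test in any comparison, with values from 0.02 to 0.16. Of 8 Usp genes at membranes, endosomes or mitochondria, 5 were lower and 1 higher in PABP1 IP, and in GFP IP 4 were higher and 4 lower, beside the same shares of all genes. Usp8, of endosomal sorting, was lower in PABP1 IP by a difference of -1.15 ± 0.24 (adjusted p = 0.0123) and in GFP IP by a difference of -1.25 ± 0.24 (adjusted p = 0.0101), both lost without input array 1 (0.0662 and 0.0613) or input array 2 (0.0637 and 0.054), and the former without PABP1 IP array 2 (0.0515). Usp30, of the outer mitochondrial membrane, was lower in GFP IP by a difference of -0.81 ± 0.18 (adjusted p = 0.0143), lost without input array 1, input array 2 or GFP IP array 1 (0.0995, 0.061 and 0.0653). Of 4 members long described as inactive, including Usp52, now named Pan2 and a subunit of a deadenylase, Usp54 was the 1 lower in PABP1 IP, by a difference of -1.15 ± 0.24 (adjusted p = 0.0111; 0.062, 0.0606 and 0.051 without input array 1, input array 2 and PABP1 IP array 2) and Usp52 did not pass the test in any comparison.

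Probes of a gene did not always share a direction. Of 22 Ube2 genes with several kept probes, the probes had mixed signs in 7 for PABP1 IP against input, 9 for GFP IP against input and 12 between the IPs. Of 23 such Usp genes the counts were 6, 11 and 8. The widest spread was in Ube2b, where 4 probes to the same RefSeq mRNA gave 0.50, 0.73, 0.95 and 2.72 in PABP1 IP and the probe to a further cDNA gave -6.15. In Usp15 a probe to a separate cDNA gave -4.68 in PABP1 IP beside -1.03 for the chosen probe. Over all 71 kept Ube2 probes the median difference was 1.43 in PABP1 IP and 0.87 in GFP IP, and over all 77 kept Usp probes it was -1.03 and -0.50 (spike-in scaling adds 2.09 and 0.98). A probe reads its own stretch of the mRNA, and whether the differing probes read other transcripts was not tested.

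**Figure D5:**
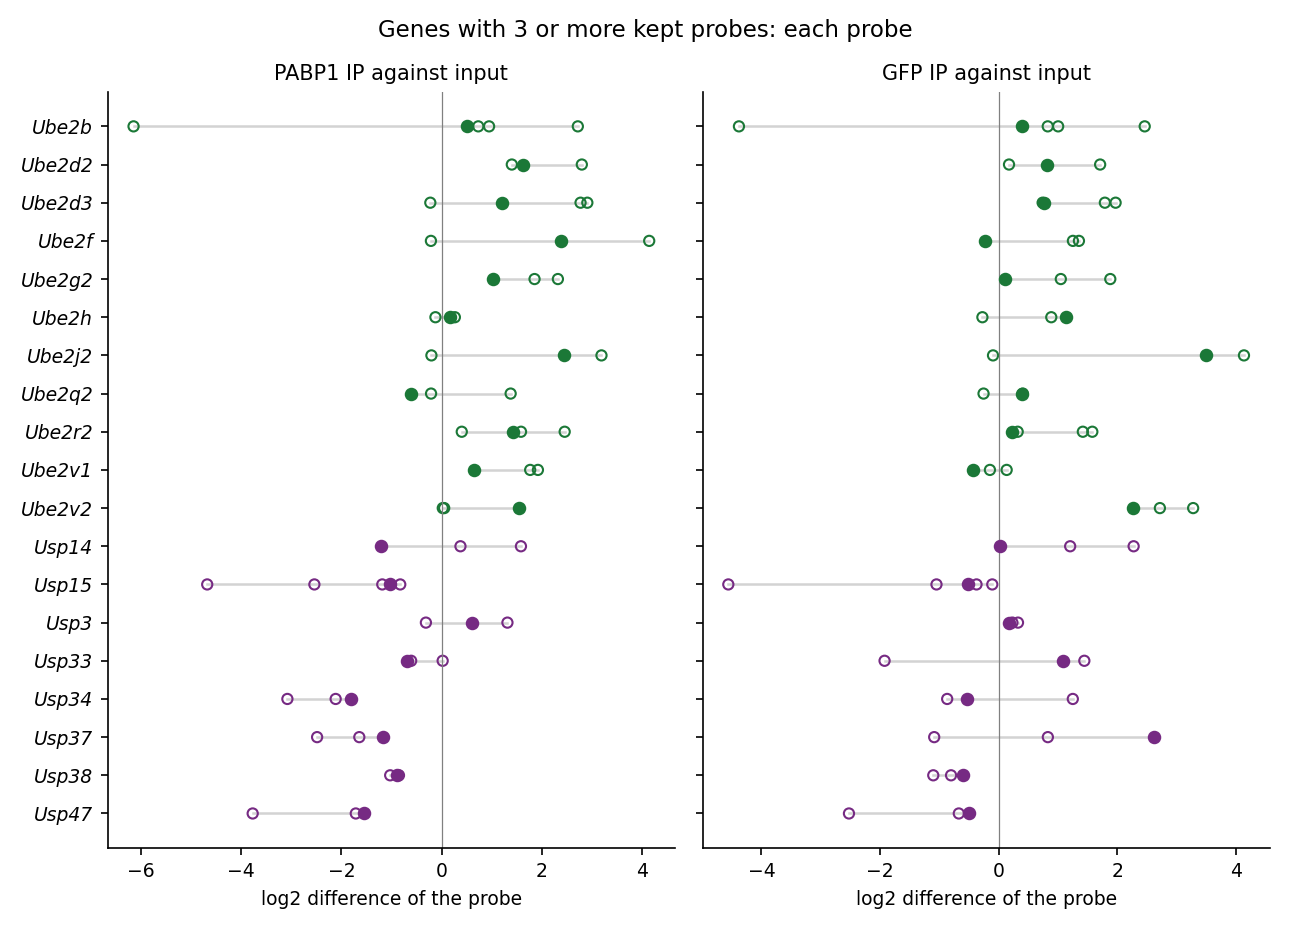
Log2 difference of each kept probe for 19 genes with 3 or more kept probes, in PABP1 IP and GFP IP against input; Ube2 genes are green and Usp genes purple. Filled points are the chosen probe, with the highest mean signal, and open points the others; in Ube2b the probes run from -6.15 to 2.72 in PABP1 IP.

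Of 7 other E2-like genes 6 were higher in PABP1 IP than in input (30.1% of all genes), with Tsg101, an inactive E2 relative of endosomal sorting, at 2.60 ± 0.34 and Ufc1, the E2 for UFM1, at 1.99 ± 0.35 (adjusted p = 0.00277 and 0.00679). Birc6, a giant enzyme of this group, was the 1 lower in PABP1 IP, by a difference of -1.95 ± 0.17 (adjusted p = 0.00116). Whether size has a part in the direction was not tested. Of 12 genes for ubiquitin and its relatives 7 were higher and 1 lower in PABP1 IP (30.1% and 23.8% of all genes), the largest being Sumo2 at 2.49 ± 0.17 (adjusted p = 0.000889), while in GFP IP 3 were higher and 6 lower (18.5% and 36.6% of all genes). Of 10 E1 enzymes 2 were lower in PABP1 IP, near the 23.8% among all genes, and the rest did not pass the test, the larger difference being that of Ube1l2, an older name of Uba6, at -2.32 ± 0.20 (adjusted p = 0.00114).

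Ligases bring the E2 enzyme and the target together, and HECT ligases, many of them large, also carry ubiquitin themselves. Of 21 tested HECT ligases 15 were lower and 2 higher in PABP1 IP (23.8% and 30.1% of all genes), with a list median of -0.91 (1.18 when scaled to spike-in RNAs), which is 1.03 below the median of all genes. Ube3a and Nedd4 were lower there by a difference of -3.09 ± 0.31 and -2.99 ± 0.21 (adjusted p = 0.0014 and 0.000901) and higher in GFP IP than in PABP1 IP by 3.39 ± 0.31 and 2.93 ± 0.21 (adjusted p = 0.000687 and 0.000488). Between the IPs 12 HECT ligases were higher in GFP IP and 2 lower (22.3% and 41.3% of all genes). With spike-in scaling 4 were higher and 5 lower, beside 856 and 9512 of all 14957 genes. Of 22 cullin-RING genes 8 were higher and 10 lower in PABP1 IP, beside the same shares of all genes as above; the small RING subunit Rnf7 rose by 2.57 ± 0.17 and the scaffold Cul4b was lower by a difference of -1.99 ± 0.29 (adjusted p = 0.000889 and 0.00354). Of 14 subunits of the anaphase-promoting complex 4 were higher and 6 lower, with Cdc26 at 2.21 ± 0.16 and Anapc4 at -1.93 ± 0.19 (adjusted p = 0.000901 and 0.0014). Of 34 other deubiquitinases, outside the Usp family, 12 were higher and 4 lower in PABP1 IP (30.1% and 23.8% of all genes).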

How the data were processed

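RNA from 6 samples was measured on Agilent one-colour mouse arrays. The authors deposited 1 scanner file per array, with the intensity of each spot and a background-subtracted signal from Feature Extraction 9.1.3.1, per the file headers; the genome build is not given in the sources used here. The authors also deposited a table of group means and standard errors of signal, normalized to array medians per its header, and a quality score, which entered no test.

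Control and outlier spots were left out, spots of a probe averaged on the log2 scale and the 75th percentile of each array subtracted. Tests used limma 3.58.1 in R 4.3.3 (lmFit, eBayes) with all 6 arrays in 1 model, a term for group alone and 3 residual degrees of freedom, two-sided, adjusted over 14957 genes. Values after ± are standard errors, with 2 arrays a group. Of 80 genes, 60 matched a RefSeq gene (GRCm38.p6, names alone) through the accession of the chosen probe, 3 of them under another current symbol. Array number and brightness, not read depth, limit the precision. Full statistics go to up to 6 genes per family, direction and comparison with the largest differences past the threshold, and up to 3 per pathway list; other genes and lists are named by family membership. Members and lists were chosen with earlier results of these data known. On simulated data with 14957 genes, GFP IP against input recovered 6 of 100 changes of 1 and 55 of 100 of 2, with 2 false calls. GFP IP against PABP1 IP recovered 1 and 48 of 100, with 1 false call. Only these few genes were changed in the simulation, whereas 55.1% and 63.6% of genes were called in the data. The adjustment was therefore stricter there, and these rates do not give the sensitivity of the reported fits. Alternatives covered scaling, background, filter, probes, slide, pairing and single arrays. Replicate numbers did not pair the samples. Values of 1 Ube2 member are not reported here; it stays in the family counts and medians.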

Additional observations from a re-analysis of the deposited data

How the results depend on the processing

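Counts of genes past the threshold (limma, adjusted p under 0.05) and the family gaps moved with scaling and with the input arrays. GFP IP against input called 8235 genes, 5356 when scaled to the array median, 4050 with spike-in scaling and 14772 with no filter on dim probes; without single arrays it called 4136 to 8355, the lowest without input array 1 and 4769 without input array 2. PABP1 IP against input called 8074, 12377 with spike-in scaling, and 5050 to 7989 without single arrays (5105 and 5050 without input arrays 1 and 2). The higher and lower calls were 2768 and 5467 in GFP IP against input, but 3622 and 1734 under median scaling, 3694 and 3641 under cyclic loess and 3748 and 302 with spike-ins. For PABP1 IP against input they were 4507 and 3567, but 12117 and 260 with spike-ins. For GFP IP against PABP1 IP they were 3337 and 6178, but 3806 and 4119 under median scaling, 4629 and 4103 under cyclic loess and 856 and 9512 with spike-ins. Lower Usp genes in GFP IP went from 15 to 5 under median scaling and 0 with spike-ins (limma), and 7 to 15 without single arrays; in PABP1 IP from 27 to 2 with spike-ins and 15 to 27 without single arrays. Lower Ube2 genes between the IPs went from 12 to 6 under median scaling, 7 under quantile, 6 under loess and 19 with spike-ins, and higher Usp genes from 16 to 4 with spike-ins. The gap between family medians in PABP1 IP went from 2.45 to 2.07 with normexp. Between the IPs it went from -0.87 to -0.53 under quantile and loess, and -0.46 with normexp; the cause was not tested. The authors' deposited means, matched for fewer genes, gave 0.25 between the IPs and 2.45 in GFP IP against input, where the fit on those genes gave -0.52 and 2.16. Of 1138 recomputed results of named genes, 985 kept direction and side of the threshold, 136 lost the call and 17 turned. With normexp these were Ube2d1 at -0.35 and Usp22 at -0.084 in GFP IP, and Ube2d1 at -0.059, Usp50 at -0.21 and Usp49 at -0.27 in PABP1 IP. With spike-ins they were Ube2j1 at 0.36 in GFP IP, Ube2q2 at 1.47, Usp24 at 0.23 and Usp34 at 0.29 in PABP1 IP, and, between the IPs, Ube2j2 at -0.035, Ube2o at -0.053, Ube2q2 at -0.093, Ube2z at -0.099, Ube2h at -0.13 and Ube2v2 at -0.38. The mean of probes turned Ube2q2 in PABP1 IP to 0.18, and cyclic loess turned Usp28 between the IPs to 0.032.

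With the replicate number as a block, 7058, 7112 and 8579 genes were called for GFP IP and PABP1 IP against input and between the IPs. Same-numbered samples had correlations of 0.20 (input with PABP1 IP), -0.06 (input with GFP IP) and -0.65 (PABP1 IP with GFP IP), so the number does not pair them. Same-numbered PABP1 IP and GFP IP arrays lay on different slides, so arrays of these groups on the same slide deviated alike. Why they did was not tested. A crossed pairing, which matched PABP1 IP and GFP IP arrays by slide and was chosen after seeing the data, called 8674, 8361 and 9906. Protein and transcript lengths were not used here. The fits without single arrays covered all tested genes, but outside the families their results are not given by gene. Signal over background limits Ube2d1, Ube2l6, Ube2w, Usp22, Usp31, Usp32, Usp49 and Usp50.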
